A study of Mus musculus with 4 samples.

Results

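The fibrous sheath and the outer dense fibres are the cytoskeletal layers that surround the axoneme of the mammalian sperm tail. The genes described here are 10 that are named after, or code for parts of, these layers: Akap3, Akap4, Fsip1, Fsip2, Ropn1 and Cabyr of the fibrous sheath, and Odf1, Odf2, Odf3 and Odf4 of the outer dense fibre group. They were taken by symbol from a joined table of 19445 genes, and all 10 were found in it. The cells were pachytene spermatocytes from the testes of adult C57BL/6 mice, of genotype Tcfl5+/+ (wild type, 2 libraries) or Tcfl5+/- (heterozygote, 2 libraries). The product of Tcfl5 belongs to the basic helix-loop-helix transcription factors, and the comparison asks what the loss of 1 copy does to the transcriptome of these cells. The sources used here give neither the part of Tcfl5 that the disrupted copy lacks nor whether the libraries came from separate mice, so p-values here measure no more than the scatter of these samples, possibly technical. Polyadenylated RNA was read as single-end reads of 50 bases. The values are FPKM, a fragment count scaled by transcript length and by library size, so levels of different genes can be compared per length, but the depth of each library is unknown.

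The outer dense fibres run along the axoneme through the midpiece and the principal piece and stiffen the tail. The fibrous sheath encloses the principal piece, where it anchors protein kinase A and glycolytic enzymes. Both are assembled in spermatids, the haploid cells that follow meiosis, and some of their genes are known to be transcribed earlier than others.

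All 15 marker genes of pachytene spermatocytes had a value in every library, with a median of 165.0 FPKM in wild-type replicate 1, 169.3 in wild-type replicate 2, 129.1 in heterozygote replicate 1 and 115.6 in heterozygote replicate 2, while their sums were 6524, 6775, 6138 and 6419 FPKM. Values of a genotype are given below in that order, replicate 1 first. Transcripts of other cells were present too. The 20 markers of round and elongating spermatids summed to 2011 and 928.7 FPKM in the wild type and to 2990 and 2389 FPKM in the heterozygote, and none was at 0 in any library. Prm1, Prm2, Tnp1 and Tnp2 made up 1038 and 437.8 FPKM of these sums in the wild type, against 2029 and 1709 FPKM in the heterozygote. The other 16 spermatid markers came to 972.7 and 490.9 FPKM in the wild type, overlapping with 960.8 and 679.5 FPKM in the heterozygote. The 16 Sertoli cell markers summed to 806.6 and 525.6 FPKM in the wild type and to 803.1 and 284.9 FPKM in the heterozygote, again with none at 0. In such bulk RNA, fewer cells of a type and less RNA per cell cannot be told apart. Tcfl5 itself was at 248.7 and 237.7 FPKM in the wild type and at 137.0 and 188.5 FPKM in the heterozygote, a log2 difference of -0.59 with a standard error of 0.16 that was not called (adjusted p = 0.242, limma-trend).

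All 10 transcripts were detected in all 4 libraries, over a range of levels from Odf2 at a mean of 859.2 FPKM to Fsip2 at a mean of 14.7 FPKM. Odf2, Odf4 and Odf1 were the highest in that order in every library, and their ranges over the 4 libraries did not touch each other or that of Cabyr, the next gene. From Cabyr downward, through Akap4, Akap3, Ropn1, Fsip1, Odf3 and Fsip2 by mean level, the ranges of neighbouring genes overlapped. The order of neighbours there does not hold beyond their spread. Genes further apart could still be told apart, since the range of Fsip2 lay below those of Cabyr, Akap4, Akap3, Ropn1 and Fsip1. Ropn1 was above Fsip1, and Odf3 above Fsip2, in 4 of 4 libraries. Akap4 was above Akap3 in only 1 of 4 libraries, and Fsip1 above Odf3 in 2 of 4.

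**Figure D1:**
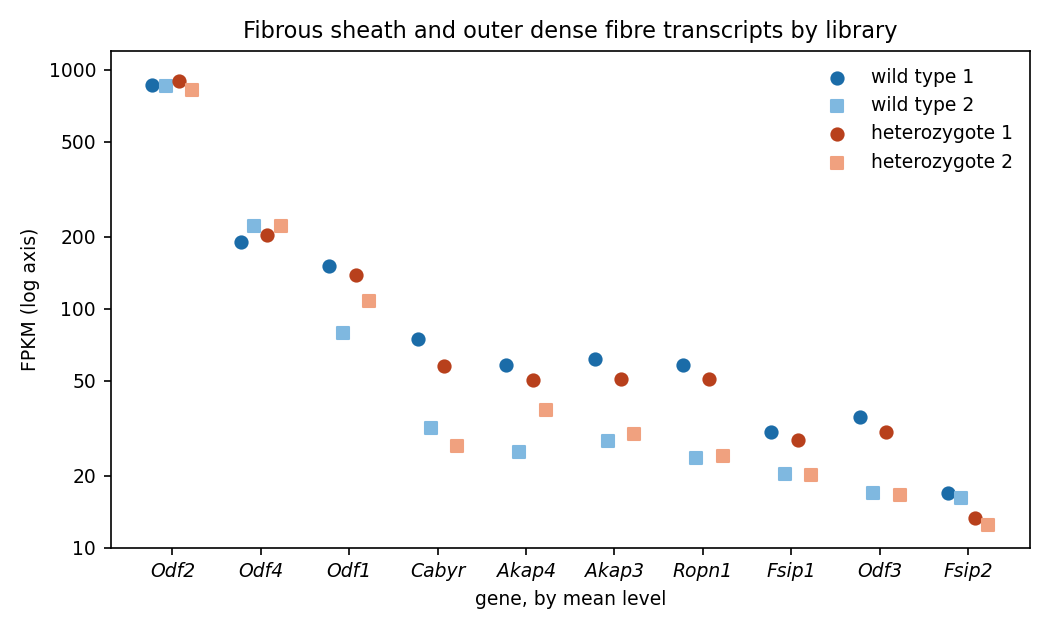
FPKM (log axis) of the 10 genes in each of the 4 libraries, with 1 point per library and genes ordered by mean level. Odf2, Odf4 and Fsip2 have points close together, while in the other 7 genes the points of replicate 1 lie above those of replicate 2 in each genotype.

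Odf2 codes for a main protein of the outer dense fibres, and other products of the gene are known at the appendages of the centriole. It was at 859.3 and 857.8 FPKM in the wild type and at 900.8 and 818.8 FPKM in the heterozygote. That placed it above at least 99.7% of the genes with a value in each library. The 4 values lay within 1.10-fold of each other and the genotypes overlapped. The files list 30 transcripts for Odf2 and give only 1 value for all of them, so the centriolar and the sperm tail forms are not separated.

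Odf4 codes for a testis protein named with the outer dense fibre group. It was at 190.6 and 220.9 FPKM in the wild type and at 202.8 and 222.6 FPKM in the heterozygote. It was the only one of the 10 genes that was lower in replicate 1 than in replicate 2 of both genotypes, at 0.863 and 0.911 times the level of replicate 2.

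Odf1 codes for a cysteine-rich protein of the outer dense fibres that is related to small heat shock proteins. It was at 151.3 and 79.1 FPKM in the wild type and at 138.8 and 108.0 FPKM in the heterozygote. Replicate 1 was thus the higher library in both genotypes, and the heterozygote values fell between the wild-type values. Odf2 exceeded Odf1 by 5.68-fold and 10.8-fold in the wild-type libraries and by 6.49-fold and 7.58-fold in the heterozygote libraries.

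Odf3 codes for a protein with repeats that associates with the tail filaments of sperm. It was at 35.1 and 16.99 FPKM in the wild type and at 30.5 and 16.6 FPKM in the heterozygote. The genotypes overlapped, and replicate 1 was above replicate 2 by 2.07-fold in the wild type and 1.84-fold in the heterozygote.

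Akap3 and Akap4 code for the main structural proteins of the fibrous sheath, which also dock protein kinase A. Akap3 lies at chr6:126853098-126874308 and Akap4 at chrX:7067515-7078609 (GRCm38), both on the plus strand. Akap3 was at 61.7 and 27.9 FPKM in the wild type and at 50.6 and 30 FPKM in the heterozygote. Akap4 was at 58.0 and 25.3 FPKM in the wild type and at 50.1 and 37.8 FPKM in the heterozygote. In both genes wild-type replicate 1 was the highest library, wild-type replicate 2 the lowest, and the heterozygote libraries lay between them. The ratio of Akap4 to Akap3 within a library was 0.941 and 0.906 in the wild type, against 0.990 and 1.26 in the heterozygote. Per length, Akap4 was below Akap3 in 3 libraries and above it in heterozygote replicate 2. Both heterozygote ratios were above both wild-type ratios, so Akap3 was lower relative to Akap4 in the heterozygote. The same held for 1868 of the 13332 genes tested other than Akap4.

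Most X-linked genes are silenced in pachytene spermatocytes, and Akap4 stood high among them. Of 479 X-linked genes that passed the filter on low values, 3 were above Akap4 in each wild-type library, 2 in heterozygote replicate 1 and 1 in heterozygote replicate 2. The median of these X-linked genes was 2.49 and 1.35 FPKM in the wild type, against 2.04 and 1.03 FPKM in the heterozygote.

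The promoters of Akap3 and Akap4 are shown because these genes code for the main proteins of the sheath and their promoters share the longest run of identical letters found among the 10 genes. RefSeq promoters (GRCm38.p6, 250 bases before the start of the gene to 50 after it) were available for 7 of the 10 genes. The sequences of the plus strand at chr6:126852848-126853147 and chrX:7067265-7067564 read as follows, with the shared run in capitals.
Akap3: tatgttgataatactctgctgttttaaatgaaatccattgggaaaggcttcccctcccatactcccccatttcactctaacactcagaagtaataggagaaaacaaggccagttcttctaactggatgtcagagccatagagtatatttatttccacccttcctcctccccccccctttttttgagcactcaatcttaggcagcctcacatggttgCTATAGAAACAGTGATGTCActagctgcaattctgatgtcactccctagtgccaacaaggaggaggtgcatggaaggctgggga
Akap4: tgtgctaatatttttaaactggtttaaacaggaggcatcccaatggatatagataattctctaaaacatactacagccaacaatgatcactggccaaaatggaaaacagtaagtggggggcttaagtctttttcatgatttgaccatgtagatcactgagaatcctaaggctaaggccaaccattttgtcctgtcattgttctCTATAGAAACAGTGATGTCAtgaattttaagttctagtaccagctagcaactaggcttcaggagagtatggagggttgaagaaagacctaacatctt

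The shared run is 20 bases long and begins 34 bases before the start of Akap3 and 47 bases before the start of Akap4. Among 32851 RefSeq promoters, searched on both strands, only those of Akap3 and Akap4 held it. The run was picked as the longest one shared in 48 pairs of promoters. How often other runs of 20 bases recur among promoters was not counted. The next longest run shared by promoters of different genes of the group was 14 bases. In Akap3 the first 10 bases of the run belong to a match to the X-box, in the degenerate form known from nematodes, a pattern that RFX factors bind and that 1.86% of promoters held. It was not matched in Akap4. The last 8 bases of the run, TGATGTCA, resemble the cAMP response element TGACGTCA, and Akap3 has a further copy across its start. TGATGTCA was in 3.62% of promoters and, of the 7 genes, in Akap3 and Akap4 alone. Both patterns were chosen after the sequences were seen.

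Other motifs gave no pattern common to the group. The full element TGACGTCA, present in 1.79% of promoters, was matched in 0 of the 7 genes, and its shorter form TGACG, present in 20.8%, in Odf2 and Fsip2. The E-box CANNTG, which basic helix-loop-helix factors are known to bind, was present in 72.3% of promoters and in those of Akap3, Odf4 and a second start of Akap4, while its form CACGTG (7.15% of promoters, contained in the former) was matched in 0 of the 7. CACGCG, in 9.27% of promoters, was matched in Odf2. These are matches of letters on either strand, in windows that hold only part of what could regulate a gene.

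Ropn1 codes for ropporin, a fibrous sheath protein that binds the anchoring proteins through a domain like that of the regulatory subunit of protein kinase A. It was at 57.9 and 23.7 FPKM in the wild type and at 50.8 and 24.2 FPKM in the heterozygote. The libraries of a genotype differed by 2.44-fold and 2.10-fold, while the genotypes overlapped. Its paralog Ropn1l, found in radial spokes and the fibrous sheath, was at 1086 and 1095 FPKM in the wild type and at 1125 and 1112 FPKM in the heterozygote. Ropn1l therefore exceeded Ropn1 by 18.8-fold and 46.2-fold in the wild type and by 22.2-fold and 45.9-fold in the heterozygote, with little variation in Ropn1l itself.

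Cabyr codes for a calcium-binding fibrous sheath protein that is tyrosine phosphorylated during capacitation. It was at 74.8 and 31.8 FPKM in the wild type and at 57.5 and 26.6 FPKM in the heterozygote. It had the widest range of the 10 genes, with the highest library 2.82-fold above the lowest. The ratio of Cabyr to Ropn1 within a library was 1.29 and 1.34 in the wild type, against 1.13 and 1.10 in the heterozygote. Both heterozygote ratios were below both wild-type ratios, a difference that was not tested.

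Fsip1 and Fsip2 were named as fibrous sheath interacting proteins, and Fsip2 is known to be needed for building the sheath. Fsip1 was at 30.6 and 20.4 FPKM in the wild type and at 28.2 and 20.1 FPKM in the heterozygote, with replicate 1 higher in both. Fsip2 was at 16.9 and 16.2 FPKM in the wild type and at 13.3 and 12.4 FPKM in the heterozygote. Unlike Fsip1, Fsip2 had both heterozygote values below both wild-type values, and the libraries within a genotype were no more than 1.07-fold apart.

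The 10 genes thus fell into a group of 7 whose level differed between the libraries of each genotype, namely Akap3, Akap4, Odf1, Odf3, Fsip1, Ropn1 and Cabyr, and a group of 3, Odf2, Odf4 and Fsip2, whose level did not. This division was made after the values were seen and is a description. In the 7 genes replicate 1 was 1.503-fold to 2.44-fold above replicate 2 in the wild type and 1.29-fold to 2.17-fold above it in the heterozygote. In the 3 genes the same ratio ran from 0.863 to 1.04 and from 0.911 to 1.10. Replicate 1 exceeded replicate 2 by at least 1.5-fold in both genotypes for 4 of the 10 genes, Akap3, Odf3, Ropn1 and Cabyr, and for 13% of the 13333 genes tested. All 4 libraries lay within 1.25-fold of each other for Odf2 and Odf4 and for 27.6% of genes tested.

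The spermatid markers moved between the same libraries. Their median ratio of replicate 1 to replicate 2 was 2.34 in the wild type and 1.33 in the heterozygote, against 1.99 and 1.36 for the 10 genes and 1.09 and 1.05 for all genes tested. Akap4 (2.30 and 1.33) and Odf1 (1.91 and 1.29) lay near those medians, whereas Ropn1 (2.44 and 2.10) and Cabyr (2.35 and 2.17) differed more between the heterozygote libraries than the median spermatid marker did. Sertoli cell markers had medians of 1.51 and 2.96, with the larger ratio in the heterozygote, and pachytene markers of 0.944 and 0.930. The part of these cell types in the levels of the 10 genes was not tested.

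**Figure D2:**
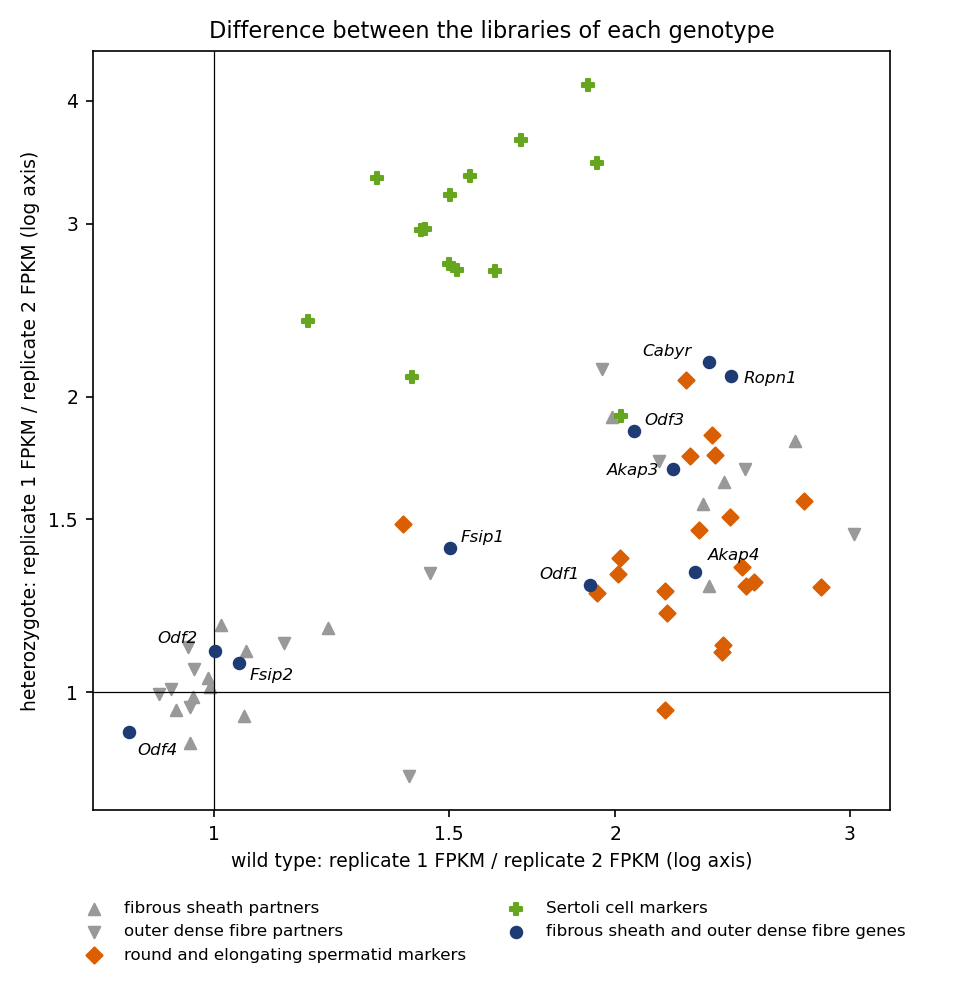
Ratio of replicate 1 to replicate 2 in FPKM for the wild type (x axis) and the heterozygote (y axis), both on log axes, with 1 point per gene; a ratio of 1 means equal levels. Odf2, Odf4 and Fsip2 lie near a ratio of 1, Akap4 and Odf1 lie among the spermatid markers, and the Sertoli cell markers lie higher on the y axis.

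By a rule on likeness, the genes with at least 20 FPKM on average whose log2 values over the 4 libraries lay nearest to the median profile of the 10 genes were Spata7, Stard10, Dgat2, Lrrc18 and Tssk1. Their root mean square distance from it was 0.021 to 0.060 log2 units over 4 libraries, among 4158 genes compared. Each of the 10 genes lay further from this median profile, from Odf1 at 0.091 to Odf4 at 0.451. Odf2 at 0.340 and Fsip2 at 0.375 were also far from it, so the profile describes the steady genes poorly. Spata7, the nearest, was at 36.2 and 19.3 FPKM in the wild type and at 31.8 and 22.8 FPKM in the heterozygote. Tssk1, a kinase gene of spermatids, was at 49.2 and 27.1 FPKM and at 48.1 and 29.9 FPKM.

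Between the genotypes, none of the 10 genes passed the test. limma-trend with genotype as the only term called 0 of 13333 genes (0% of genes tested) at a Benjamini-Hochberg adjusted p under 0.05, of which 0 of the 10. At an unadjusted p under 0.05, 1759 genes stood out (13.2%), and Fsip2, lower in the heterozygote as were 5.57% of genes tested, was the only one of the 10 among them. Both heterozygote libraries lay outside the range of both wild-type libraries for 1 of the 10 genes, again Fsip2, and for 42.6% of all genes tested. The median log2 difference of the 10 genes, heterozygote minus wild type on the log2(FPKM + 1) scale, was -0.07, and that of all genes tested was -0.02. The former ran from -0.39 to 0.34 when 1 library was left out, so its direction rested on which libraries were compared.

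Fsip2 had group means of 16.5 ± 0.495 FPKM in the wild type and 12.8 ± 0.622 FPKM in the heterozygote (SD, n = 2 each), 1.29-fold apart. Its log2 difference was -0.34 with a standard error of 0.13 (limma-trend, adjusted p = 0.352). Without any 1 library the difference stayed between -0.39 and -0.30. Both heterozygote libraries were below both wild-type libraries for 19% of all genes tested. In the gene model of the files Fsip2 has a longest transcript of 21132 bases, the longest among the 10 genes.

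The intervals of the steady genes Odf2 and Odf4 were narrow, which follows from the agreement between libraries by which these genes were set apart. For Odf2, at 858.5 ± 1.10 and 859.8 ± 58.0 FPKM (SD, n = 2 each), the log2 difference was 0.0005 with a 95% interval of -0.20 to 0.20 from limma-trend. Odf4 was at 205.7 ± 21.4 FPKM in the wild type and 212.7 ± 14.1 FPKM in the heterozygote (SD, n = 2 each), with an interval of -0.21 to 0.31 around 0.05. The sign of both differences turned under other scalings of the libraries.

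For the 7 genes with a wide spread between libraries the intervals were wider, which follows from that spread, by which these genes were set apart. Cabyr had the lowest estimate of these, -0.31 with an interval of -1.67 to 1.04, and Akap4 the highest, 0.18 with an interval of -0.86 to 1.22. Means were 53.3 ± 30.4 and 42.0 ± 21.9 FPKM for Cabyr and 41.7 ± 23.2 and 44.0 ± 8.70 FPKM for Akap4 in the wild type and the heterozygote (SD, n = 2 each). Akap3, Odf1, Odf3, Fsip1 and Ropn1 had estimates from -0.11 to 0.16. For each of the 7 genes the estimate changed sign when 1 library or another was left out, and the intervals of Akap3, Ropn1 and Cabyr reached past a 2-fold difference in both directions.

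**Figure D3:**
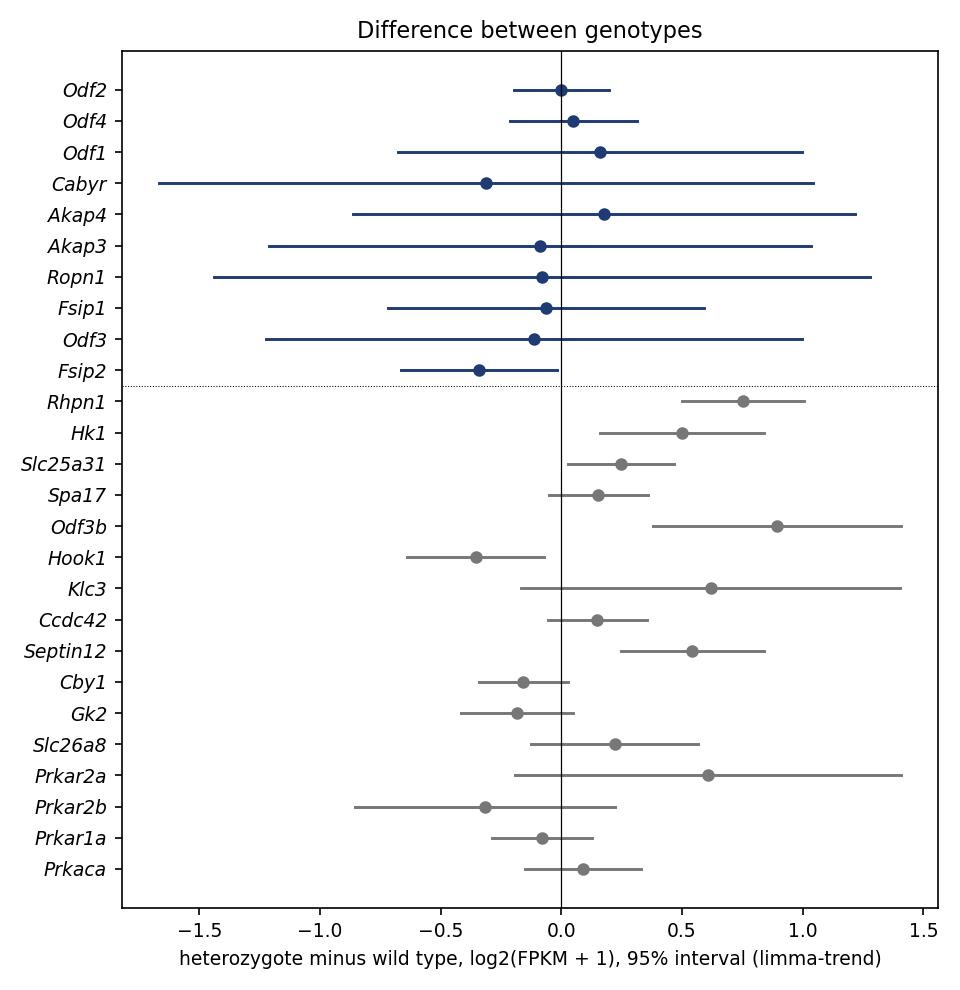
Difference between genotypes on the log2(FPKM + 1) scale, heterozygote minus wild type, with points for the limma-trend estimate and lines for its 95% interval; the 10 genes are above the dotted line and partner genes named by rule below it. The interval of Fsip2 ends just below 0, those of the other 9 genes include 0, and Rhpn1 lies highest in the fibrous sheath list.

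Within the fibrous sheath, 14 genes for partners of these proteins and for enzymes bound to the sheath were measured, and 0 passed limma-trend in either direction over all genes tested, with a median log2 difference of 0.03. Rhpn1 codes for rhophilin, which binds ropporin. It was at 19.5 and 19.7 FPKM in the wild type and at 34.4 and 33.2 FPKM in the heterozygote, 1.72-fold higher, with a log2 difference of 0.75 and a standard error of 0.10 (adjusted p = 0.134 by limma-trend). Its libraries agreed closely within each genotype and the groups lay apart, while Ropn1 differed between replicates. The ratio of Rhpn1 to Ropn1 was 0.337 and 0.832 in the wild type, against 0.677 and 1.37 in the heterozygote, and these overlapped.

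Hk1 codes for a hexokinase, of which a germ cell form is bound to the sheath. It was at 104.1 and 85.5 FPKM in the wild type and at 144.2 and 124.0 FPKM in the heterozygote (adjusted p = 0.233, limma-trend). Slc25a31, an adenine nucleotide carrier of germ cells, was at 50.6 and 48.1 FPKM and at 57.1 and 60.4 FPKM (adjusted p = 0.319), and Spa17, a sheath protein with the same docking domain as ropporin, at 585.9 and 554.4 FPKM and at 665.8 and 604.3 FPKM (adjusted p = 0.537). In these 3 genes, in Rhpn1 and in Ropn1l, 5 of 14 in all, both heterozygote libraries were above both wild-type libraries, which held for 23.6% of all genes tested. Those called at an unadjusted p under 0.05 were Rhpn1, Hk1 and Slc25a31, 3 of 14 against 7.63% of genes tested in that direction.

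Of the outer dense fibre partners and paralogs 12 were measured and tested, 0 passed in either direction, and the median log2 difference was -0.04. Odf3b, a paralog of Odf3, was at 0.910 and 0.650 FPKM in the wild type and at 2.08 and 2.53 FPKM in the heterozygote (log2 difference 0.89, adjusted p = 0.193, limma-trend), a low level in all libraries. Hook1, a manchette protein that binds microtubules, was at 56.7 and 50.3 FPKM and at 44.0 and 39.2 FPKM (adjusted p = 0.279). Klc3, a kinesin light chain that binds the fibres, was at 1.36 and 0.450 FPKM and at 2.2 and 1.52 FPKM (adjusted p = 0.504). Ccdc42, a protein needed for tail formation in mice, was at 119.3 and 131.3 FPKM and at 138.5 and 139.2 FPKM (adjusted p = 0.553).

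Among 11 genes of the annulus and the mitochondrial sheath, the neighbouring structures of the midpiece, 0 passed and the median log2 difference was 0.04. Septin12, a septin of the annulus, was at 220.1 and 270.2 FPKM in the wild type and at 346.6 and 365.0 FPKM in the heterozygote, 1.45-fold higher (adjusted p = 0.186, limma-trend). Cby1, Gk2 and Slc26a8, the other genes of smallest p in that list, had log2 differences of -0.16, -0.18 and 0.22. Of the 6 subunits of protein kinase A, which the anchoring proteins bind, 0 passed, and the median log2 difference was -0.02. Prkar1a was at 82.0 and 78.6 FPKM in the wild type and at 78.5 and 73.3 FPKM in the heterozygote, and the catalytic subunit gene Prkaca at 65.2 and 73.5 FPKM and at 75.2 and 72.3 FPKM. The type II regulatory subunit genes were low, with Prkar2a at 3.72 and 2.11 FPKM and at 5.95 and 3.91 FPKM, and Prkar2b at 2.43 and 2.85 FPKM and at 1.67 and 2.19 FPKM.

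Both patterns were also present among the partners. Replicate 1 was at least 1.5-fold above replicate 2 in both genotypes for 4 of 14 fibrous sheath partners and 3 of 12 outer dense fibre partners. The same held for 4 of 11 genes of the annulus and mitochondrial sheath, against 13% of all genes tested. All 4 libraries lay within 1.25-fold of each other for 6, 5 and 3 genes of these lists in that order, against 27.6% of all genes tested.

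Levels relative to Akap4 within a library do not depend on the factor by which a library is scaled. These ratios were chosen after the values had been seen and are a description, with no test. Of the other 9 genes of the group, 0 had a higher ratio to Akap4 in both heterozygote libraries, 2 had a lower one (Akap3 and Cabyr) and the rest overlapped between the genotypes. Over all 13332 genes tested but Akap4, 408 (3.06%) had a higher ratio and 1868 a lower one, so these counts do not set the group apart. Odf1 kept closest to Akap4, at 2.61 and 3.13 times its level in the wild type and at 2.77 and 2.86 times in the heterozygote. For Akap3, Odf3, Fsip1, Ropn1 and Cabyr the highest ratio was 1.39 to 1.84 times the lowest, and Cabyr, for one, stood at 1.29 and 1.26 in the wild type and at 1.15 and 0.702 in the heterozygote.

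The genes with steady levels had wide ratios, since Akap4 itself varied 2.30-fold. Odf2 was at 14.8 to 33.9 times Akap4, Odf4 at 3.28 to 8.74 times and Fsip2 at 0.265 to 0.641 times, and a gene with a steady level is bound to overlap between the genotypes in this ratio. Among sheath partners, Gapdhs, the sperm glycolytic enzyme bound to the sheath, was higher relative to Akap4 in the heterozygote, at 1.97 and 1.93 in the wild type and at 2.26 and 2.33 in the heterozygote. Fscb, a Cabyr-binding protein of the sheath, overlapped, at 0.247 and 0.244 and at 0.249 and 0.212.

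The protamine and transition protein genes code for the chromatin proteins of condensing spermatids. In FPKM, Prm1 was at 247.7 and 113.6 in the wild type and at 522.7 and 412.5 in the heterozygote, and the difference did not pass limma-trend over all genes (adjusted p = 0.228). Relative to Akap4, Prm1 was at 4.27 and 4.50 in the wild type and at 10.4 and 10.9 in the heterozygote. Prm2, Tnp1 and Tnp2 were likewise higher in both heterozygote libraries, in FPKM and relative to Akap4. The spermatid markers as a list leaned higher in the heterozygote in FPKM, with 15 of 20 log2 differences positive and 5 negative. Their median was 0.52, against -0.02 for all genes tested, and 0 were called by limma-trend. Both heterozygote libraries were above both wild-type libraries for 6 of 20, near the 23.6% of all genes tested, and below them for 0, while 14 overlapped. Relative to Akap4, 11 of the 20 were higher in both heterozygote libraries, against 408 of 13332 genes tested (3.06%). Lower were 4 of the 20, among them the acrosomal gene Acrv1, against 1868 of 13332, and 5 overlapped. Over all genes tested but Akap4, 11056 overlapped. Akap4 had both its highest and its lowest value in the wild type, so genes that do not follow it between replicates tend to overlap. The spermatid markers moved between the same libraries as Akap4, so the shares over all genes are not a like background for them.

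**Figure D4:**
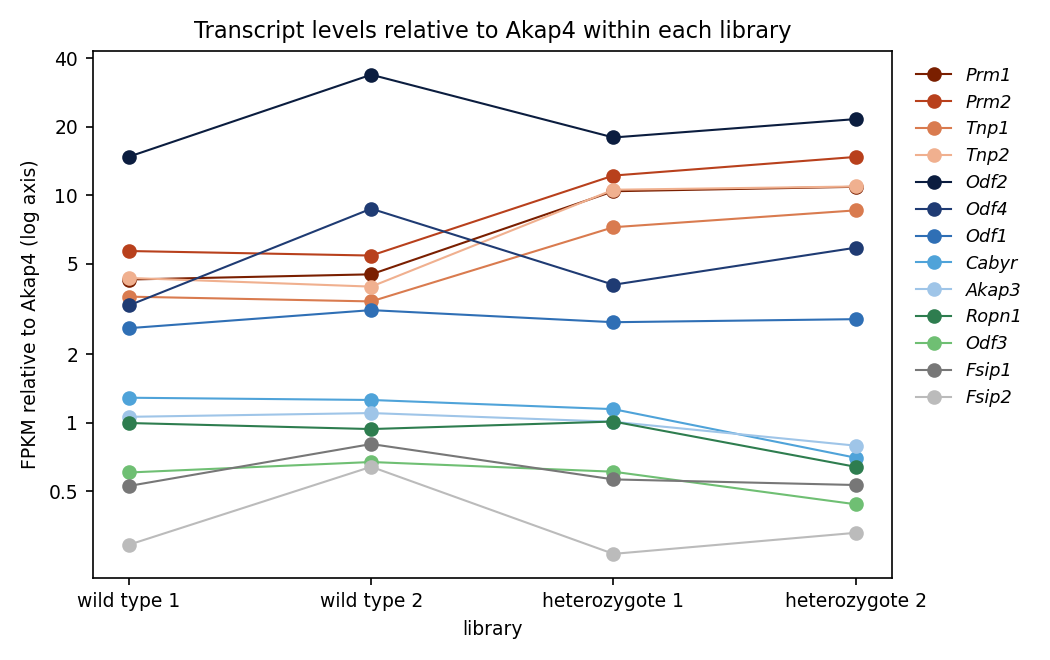
FPKM divided by that of Akap4 in the same library (log axis), for Prm1, Prm2, Tnp1, Tnp2 and the other 9 fibrous sheath and outer dense fibre genes, with lines joining the points of a gene over the 4 libraries. Prm1 lies at 4.27 and 4.50 in the wild type and at 10.4 and 10.9 in the heterozygote, Odf1 stays between 2.61 and 3.13, and Odf2, Odf4 and Fsip2 peak in wild-type replicate 2, where Akap4 was lowest.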

How the data were processed

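For each library the authors deposited a table of genes with their FPKM, rounded to 2 decimals, as the file headers name it. The genome was GRCm38 (mm10) and the tools named in the submitters' processing notes are RSEM 1.2.12, HISAT2 2.0.4 and Bowtie2 2.2.5, with roles not given in the sources used here. Strand-keeping steps are not named in the protocol. Exons of the 10 genes shared no base with another protein-coding gene in GENCODE M21.

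Tables were joined by Entrez identifier, with 0 where a gene was absent from a library; 1 row without a gene and 1593 genes without a value per table were left out, and 27 symbols turned into dates were restored. The FPKM values summed to 473346, 468130, 492203 and 483954 in replicates 1 and 2 of the wild type, then of the heterozygote. Genes averaging 0.5 FPKM or more (13333, all 10 genes among them) were tested as log2(FPKM + 1) with limma-trend (limma 3.58.1, R 4.3.3), genotype as the only term, two-sided, Benjamini-Hochberg adjusted over all genes tested; fold changes on this scale understate those of low genes, and the printed folds are ratios of mean FPKM. limma was planned for FPKM in place of a count test. It was tried on simulated data in which each gene varied independently in each library. That trial does not cover deviations shared between libraries across genes, which were present here.

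The 10 genes and the lists were chosen with earlier results of these data known. Named were the 10 genes, Tcfl5, the 4 genes of smallest p in each pathway list, 4 spermatid genes and the 5 genes of nearest profile; others were named after their values were seen. The X-box and TGATGTCA searches and the ratios to Akap4 were added later. Of the 13 outer dense fibre partners fixed, 12 were matched.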

Additional observations from a re-analysis of the deposited data

How the results depend on the processing

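None of the 10 genes was called between the genotypes without the filter on low values, under a pseudocount of 0.1, median-ratio or equal-sum scaling, quantile normalization, the replicate block or leaving out any 1 library; at an unadjusted p under 0.05 the count was 1. Over all genes the count of 0 became 65 with median-ratio scaling, 119 with quantile normalization, 1213 with the replicate block and 1759 at an unadjusted p under 0.05, and the cause was not tested. The labels give the genotypes the same replicate numbers but do not say that a number marks a shared day or litter; across genes the deviations of same-numbered libraries correlated at 0.529. With the replicate block, 1213 of 13333 genes tested were called, and Tcfl5 was among them (adjusted p = 0.00339, limma-trend). Also called were 2 of 14 fibrous sheath partners (Rhpn1 and Hk1, adjusted p = 0.00132 and 0.00323). Of the outer dense fibre partners 5 of 12 were called (Odf3b, Odf3l1, Tssk4, Klc3 and Hook1), and of the annulus list 1 of 11 (Septin12, adjusted p = 0.00142). The smallest adjusted p of the 10 genes was 0.0836, for Cabyr (limma-trend).

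The log2 differences of Odf2 and Odf4 turned to -0.0516 and -0.0018 with equal-sum scaling and to -0.0673 and -0.0361 with quantile normalization. Without 1 library the difference ran from -0.65 to 0.47 for Akap3, -0.41 to 0.76 for Akap4, -0.92 to 0.29 for Cabyr, -0.35 to 0.22 for Fsip1, -0.30 to 0.62 for Odf1, -0.0683 to 0.0692 for Odf2, -0.62 to 0.39 for Odf3, -0.0556 to 0.16 for Odf4 and -0.71 to 0.55 for Ropn1, where the lone library of a genotype is assumed to vary like the others. The depth behind each value is unknown, and 2 libraries per genotype limit every comparison.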
